A study of Bos taurus with 17 samples.

Results

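A set of 42 cell division and DNA replication genes was followed in the cumulus cells of the cow, the somatic cells that surround the oocyte in the follicle. The members were taken by gene name from the 20602 gene names of an Agilent bovine array, 15 of them for the synthesis of DNA and 27 for mitosis. A probe was found for 41 of them, none for MKI67, with 46 probes in all. NC1 cells came from 6 prepubertal calves aged 3 to 6 months (follicles of 3 to 6 mm, immature oocytes labelled as developmentally incompetent), and C1 cells came from 6 adult cows of various ages, with immature oocytes labelled as competent. Both kinds were aspirated after slaughter from complexes with a compact cumulus. C2 cells came from 5 cycling, non-lactating Holstein cows aged 3 to 5 years that had received progestagen implants, an FSH/LH preparation and prostaglandin F2α. Their complexes, with an expanded cumulus and a metaphase II oocyte, were taken by ovum pick up 60 h after prostaglandin from follicles above 8 mm. The age of the animals therefore changed along with the stage between NC1 and C1, while hormones and the way of collection changed along with it between C1 and C2. Follicle size, breed and lactation state are not given for C1, and these and age may have differed between C1 and C2 as well. None of these can be told apart from the stage. Each of the 17 samples was hybridised to 1 array with 1 dye.

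Cells that divide copy their DNA in S phase and separate the copies in mitosis. Before S phase, CDC6 and CDT1 load a helicase of the MCM proteins at the origins of replication, and E2F factors such as E2F1 switch on these genes together with those that make nucleotides. Later, FOXM1 and related factors switch on the mitotic genes, among them the cyclins A and B, their kinase CDC2 (also named CDK1), the Aurora and Polo kinases and the proteins of the centromere and spindle. Granulosa and cumulus cells divide while the follicle grows, and they are known to leave the cell cycle after the surge of luteinizing hormone that triggers ovulation. At that time they also lay down the hyaluronan-rich matrix of the expanded cumulus.

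Levels are given as log2 scaled signal, the log2 of the background-corrected signal minus the median of the array, so that 0 is the median probe of an array and 1 unit is a 2-fold difference. Levels of different probes are not comparable with each other. A probe was kept when it was present, that is well above background and not set aside for poor spot quality, in no fewer than 80% of the samples at every stage. Of the 42 members, 36 had such a probe (14 for replication, 22 for mitosis), and the others are described at the end. A gene with more than 1 such probe is given by the probe with the highest mean over the 17 arrays. Stages were compared in limma with Benjamini-Hochberg adjustment over all 13865 valid probes and a threshold of 0.01, and each change is given with the SE of the fit. These p-values measure the spread between the 17 samples, and the small number of arrays limits their precision. The fit takes the same variance for a probe at every stage. Where the C2 arrays spread more than the others, as for most mitosis genes, the SE is too small for the C2 stage. Calls of such genes, among them CDC20, AURKA and KIF23, are less certain than their p-values state. An exact permutation test over arrays cannot go below 0.00433 for 5 arrays against 6. Each RNA sample came from many cells, so that fewer cells of a type and less RNA per cell cannot be told apart in any value below.

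The 5 C2 arrays were not alike. The SD of the log2 difference between a pair of arrays, over all valid probes, was 0.44 for C2 replicates 1 and 5 and 0.51 for replicates 3 and 4, but 1.05 to 1.27 for every other pair of C2 arrays. Pairs of NC1 arrays lay between 0.43 and 0.69, and pairs of C1 arrays between 0.45 and 0.76. Markers of cumulus expansion (6 genes) had a summed scaled signal of 788 to 1570 at C2 stage against 176 to 342 at C1 stage, with 4 of the 6 up-regulated. The others, GREM1 and VCAN, were below all C1 arrays (lowest 3.43 and 7.24) on C2 replicates 1 and 5, with -0.97 and -1.65 for GREM1 and 5.44 and 6.15 for VCAN. Granulosa markers were well above background on every array for FOXL2 and FSHR. All 17 arrays had between 66.2% and 82.8% of their probes well above background, and C2 arrays between 72.4% and 81.3%.

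At C2 stage, 11 of the 36 members were down-regulated against C1 stage and 1 was up-regulated. The members that fell were MCM2, MCM4, MCM5, TK1, CDC6, CDT1 and E2F1 of the replication genes (7 of 14, or 50%) and PLK1, FOXM1, CDC20 and AURKB of the mitosis genes (4 of 22, or 18.2%). The only rise was that of the probe that stands for CCNE2, whose other valid probe fell. Of all valid probes, 28.1% passed the test in this comparison in either direction, and 12.8% were lower at C2. All 5 C2 arrays lay below all 6 C1 arrays for 7 replication and 3 mitosis genes, against 11.0% of all valid probes. The median change between the stages was -1.45 over the replication genes (2.73-fold lower) and -2.28 over the mitosis genes (4.87-fold lower), against 0.02 over all valid probes. Mitosis genes thus had the larger median fall and, with all arrays weighted alike, the smaller share of calls, and the difference between the lists was not tested. Their C2 arrays spread more, since the median SD over the C2 arrays was 2.63 for the mitosis genes, 0.66 for the replication genes and 0.50 for all valid probes. At C1 stage the same medians were 0.26, 0.28 and 0.33. Since the fit took the same variance at both stages, the SE of most mitosis genes understates their spread at C2. Leaving out 1 C2 array moved the number of calls and the median changes. Without C2 replicate 3, 20 members were called (8 of 14 replication and 12 of 22 mitosis genes, against 24.7% of all valid probes), and without C2 replicate 4, 22 were (9 of 14 and 13 of 22, against 25.9%). With array weights, which gave the C2 replicates 2 to 4 little weight, it was 10 of 14 and 20 of 22, against 29.5%, so that the order of the shares turned. The median change of the mitosis genes lay at -1.37 without C2 replicate 1 and at -2.87 without replicate 4.

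**Figure D1:**
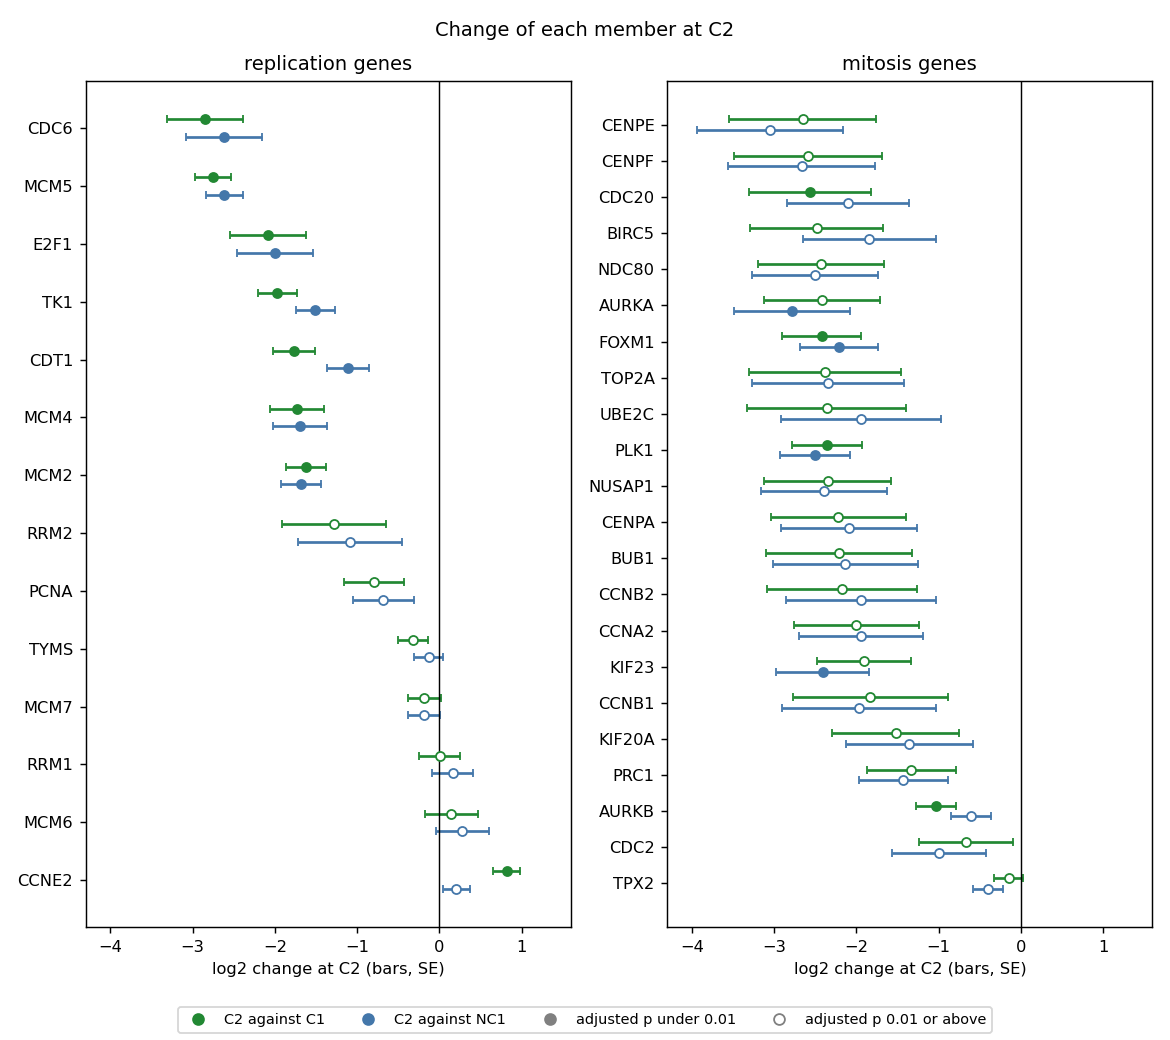
Change of each member at C2 stage on the log2 scale, against C1 (green) and against NC1 (blue), with bars for the SE of the fit, for the 14 replication genes (left) and the 22 mitosis genes (right). Filled points have an adjusted p under 0.01: 7 of the replication genes are filled and below 0 in both comparisons, while most mitosis genes lie near -2 with wide bars and open points.

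The MCM proteins form the helicase that opens DNA ahead of the fork. MCM5 had the lowest adjusted p of all members. Its log2 scaled signal was 6.92 to 7.72 (median 7.35) at NC1, 7.21 to 7.80 (median 7.36) at C1, and 4.13, 4.57, 5.13, 5.29 and 4.33 on C2 replicates 1 to 5. Every C2 array lay well below every other array, and the change against C1 was -2.75 ± 0.22 (SE), or 6.74-fold lower, with an adjusted p of 3.11e-08. MCM2 measured 6.75 to 7.64 (median 6.86) at C1 and 5.10, 4.92, 5.98, 5.98 and 5.08 on the C2 arrays, a change of -1.62 ± 0.24 (adjusted p = 3.31e-05). MCM4 measured 5.61 to 6.36 (median 6.04) at C1 and 3.50, 3.56, 5.16, 5.46 and 3.80 at C2, a change of -1.73 ± 0.33 (adjusted p = 0.000385). For both genes the C2 arrays stayed below the C1 arrays, with replicates 3 and 4 closest to them.

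MCM6 and MCM7, of the same ring, did not pass the test, and MCM3 could not be tested. MCM6 measured 2.22 to 3.47 (median 2.72) at C1 and 2.43, 2.24, 3.68, 3.97 and 2.34 on the C2 arrays, so that C2 replicates 3 and 4 lay above all C1 arrays and the others within their range. Its change was 0.15 ± 0.32 (adjusted p = 0.74). MCM7 measured 6.42 to 6.97 (median 6.73) at C1 and 6.26, 6.14, 6.83, 6.95 and 6.43 at C2, a change of -0.18 ± 0.20 (adjusted p = 0.487).

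Loading of the helicase at origins requires CDC6 and CDT1. CDC6 measured 2.62 to 3.86 (median 3.06) at NC1, 3.04 to 3.92 (median 3.39) at C1 and -0.81, -0.10, 2.06, 2.11 and -0.43 on C2 replicates 1 to 5. All C2 arrays were below all others, replicates 1, 2 and 5 by far the most, and the change against C1 was -2.85 ± 0.46, or 7.23-fold lower (adjusted p = 7.78e-05). CDT1 measured 4.16 to 4.82 (median 4.23) at C1 and 2.15, 2.50, 2.95, 3.61 and 1.85 at C2. Its change was -1.77 ± 0.26 (adjusted p = 2.68e-05) with no overlap of the arrays. E2F1, which drives transcription of S phase genes, measured 1.30 to 1.89 (median 1.45) at C1 and -2.18, -0.83, 1.01, 1.03 and -1.74 at C2. The change of E2F1 was -2.08 ± 0.47 (adjusted p = 0.00155), and C2 replicates 3 and 4 came close to the lowest C1 array.

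The supply of nucleotides gave mixed results. TK1, the thymidine kinase of the salvage pathway, measured 7.41 to 8.05 (median 7.66) at C1 and 5.33, 5.31, 6.12, 6.28 and 5.54 on the C2 arrays, a change of -1.97 ± 0.24 or 3.93-fold lower (adjusted p = 3.03e-06). TYMS, which makes thymidylate afresh, measured 5.79 to 6.37 (median 6.01) at C1 and 5.71, 5.24, 6.02, 6.02 and 5.68 at C2, a change of -0.32 ± 0.18 (adjusted p = 0.161). These enzymes serve the same precursor, yet the arrays overlapped for TYMS and were more than 1 unit apart for TK1. RRM1 and RRM2 are the large and small subunits of ribonucleotide reductase. RRM1 measured 7.04 to 7.81 (median 7.32) at C1 and 6.70, 7.27, 7.81, 8.12 and 6.81 at C2, a change of 0.00 ± 0.25 (adjusted p = 0.994). RRM2 measured 2.75 to 3.62 (median 2.94) at C1 and -0.62, 1.77, 3.77, 3.96 and -0.08 at C2, a change of -1.28 ± 0.63 (adjusted p = 0.116). For RRM2 the stage mean hides arrays on both sides, since C2 replicates 3 and 4 were above all C1 arrays and replicates 1, 2 and 5 below all of them. PCNA, the sliding clamp of the polymerases, had the same order with 1.61 to 2.48 (median 1.98) at C1 and 0.25, 0.48, 2.15, 2.70 and 0.28 at C2 (change -0.80 ± 0.37, adjusted p = 0.0929).

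**Figure D2:**
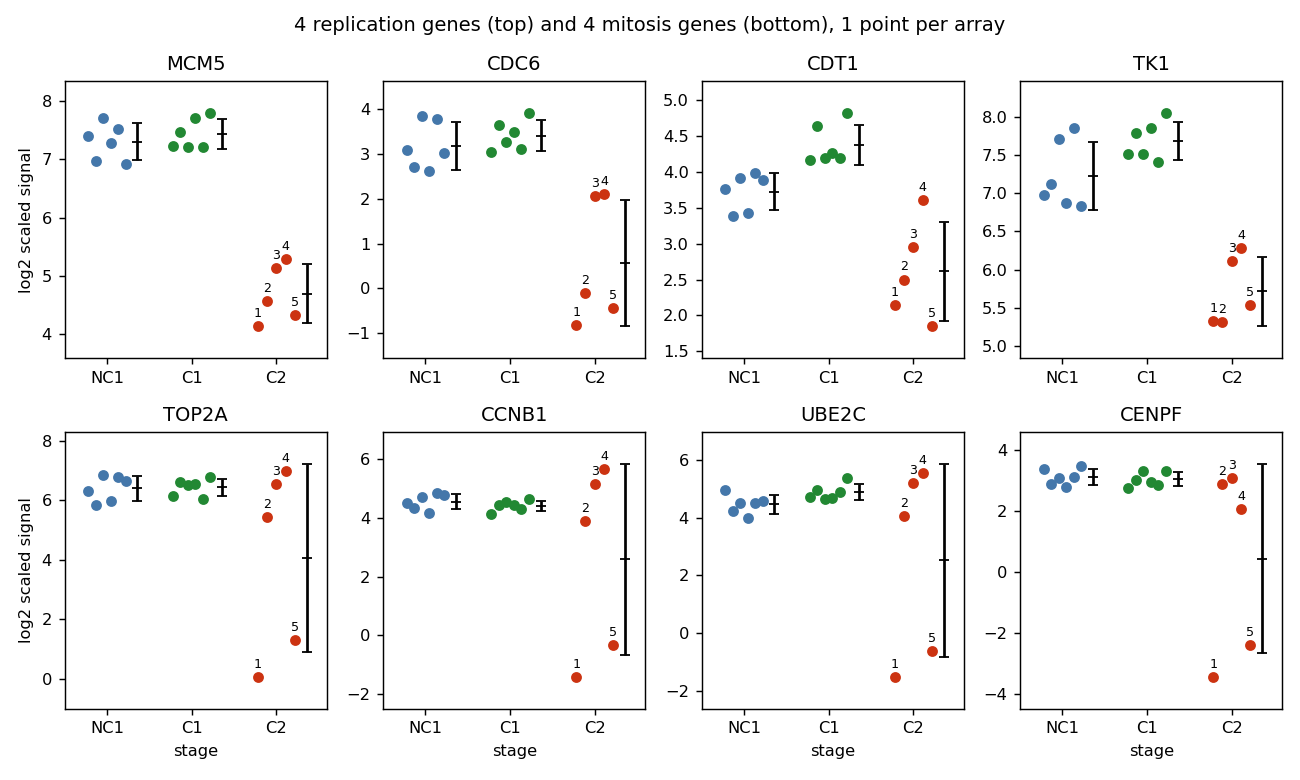
Log2 scaled signal of 4 replication genes (top) and 4 mitosis genes (bottom) on each array, 1 point per array, with bars for the mean and SD of each stage and replicate numbers beside the C2 points. All 5 C2 points of MCM5, CDC6, CDT1 and TK1 lie below the C1 points, whereas for TOP2A, CCNB1, UBE2C and CENPF C2 replicates 1 and 5 lie far below and the others near the C1 level.

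CCNE2 encodes a cyclin E, which drives entry into S phase, and was read by a pair of valid probes that moved in opposite directions. The probes are 60 bases long and shared no run longer than 5 bases. The first 30 bases of each are shown, to make plain that they read different stretches, with those of BIRC5, the other member with a pair of valid probes.
CCNE2, probe A_73_120096: actgcctgaaatattccattagtatcctta
CCNE2, probe A_73_107533: acacttgacctaaacttctattttcttaag
BIRC5, probe A_73_109270: cattatctcacattgatgtctgcagatcct
BIRC5, probe A_73_102314: tgtgtgtgtgtggaacaggattttcatgta
Probe A_73_120096, which stands for CCNE2 here, measured -0.33 to 0.17 (median 0.02) at C1 and 0.53, 0.81, 1.11, 0.80 and 0.72 on the C2 arrays, a change of 0.82 ± 0.16 (adjusted p = 0.000604) with all C2 arrays above all C1 arrays. Probe A_73_107533 measured 0.06 to 1.04 (median 0.70) at C1 and -2.91, -1.25, -0.24, -0.16 and -2.47 at C2, a change of -2.04 ± 0.41 (adjusted p = 0.000593) with all C2 arrays below. The means of the 2 probes were 0.59 and 0.57 at NC1 and -0.02 and 0.63 at C1, so that A_73_120096 had the higher mean over all arrays only through C2 stage, and its choice is not independent of the rise. The direction for CCNE2 thus depends on the probe, and the mean of both probes gave -0.61 (adjusted p = 0.067). Both probes hold 35% of G and C, and which transcripts they match was not tested. For BIRC5 both probes had the same order of C2 arrays, with a change of -2.48 ± 0.81 on A_73_109270 (adjusted p = 0.0201) and -0.98 ± 0.43 on A_73_102314 (adjusted p = 0.0749).

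**Figure D3:**
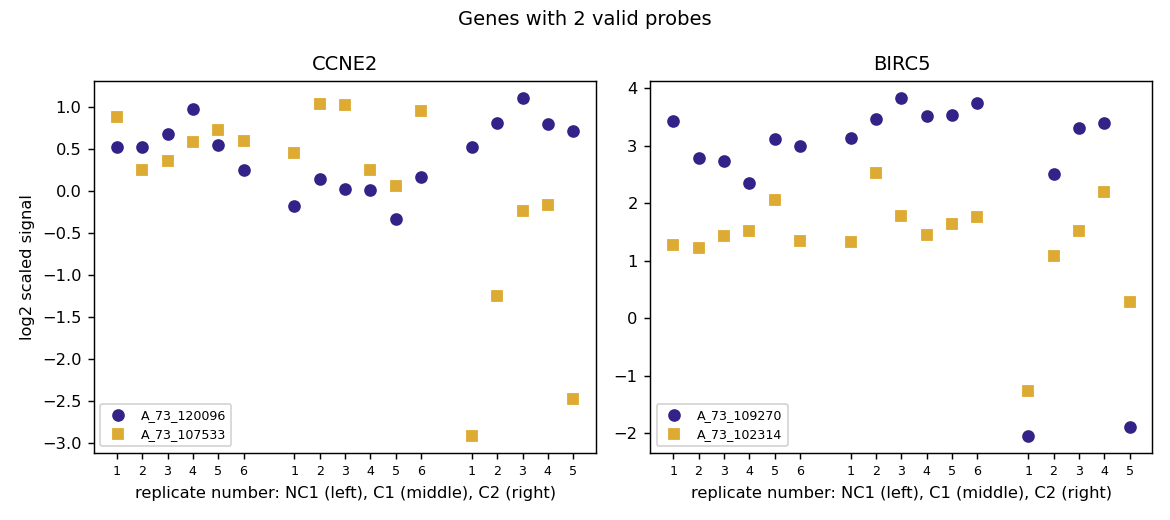
Log2 scaled signal of the pair of valid probes of CCNE2 (left) and of BIRC5 (right) on each array, ordered by stage and replicate. The CCNE2 probes separate at C2 stage, 0.53 to 1.11 for one and -2.91 to -0.16 for the other, while both BIRC5 probes are lowest on C2 replicates 1 and 5.

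Among the mitosis genes, the regulators PLK1 and FOXM1 were lower on all 5 C2 arrays. PLK1, the Polo kinase that acts from mitotic entry to cell separation, measured 7.32 to 8.04 (median 7.66) at NC1, 7.14 to 7.97 (median 7.47) at C1 and 3.70, 5.69, 6.27, 6.40 and 3.75 on C2 replicates 1 to 5. Its change against C1 was -2.36 ± 0.42, or 5.13-fold lower (adjusted p = 0.00022). FOXM1, a transcription factor of mitotic genes, measured 2.63 to 3.24 (median 3.02) at C1 and -1.61, 1.06, 1.68, 2.11 and -0.64 at C2, a change of -2.42 ± 0.48 (adjusted p = 0.000559). Both genes showed the fall on every C2 array and a deeper one on replicates 1 and 5. CDC20, an activator of the anaphase-promoting complex, measured 3.72 to 4.26 (median 4.12) at C1 and -1.52, 3.17, 3.05, 3.70 and -1.04 at C2. Its change of -2.56 ± 0.74 passed narrowly (adjusted p = 0.00986), and the call was lost in 23 of the alternatives tried. AURKB, the kinase of the chromosomal passenger complex, measured 1.76 to 2.47 (median 2.11) at C1 and 0.60, 1.89, 0.94, 1.40 and 0.48 at C2, a change of -1.04 ± 0.24 (adjusted p = 0.00226). Here C2 replicate 2 lay within the C1 range and the others below it.

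For most of the other mitosis genes the mean at C2 stage stood between C2 arrays that were near the C1 level and arrays far below it. TOP2A, the topoisomerase that untangles sister chromatids, measured 6.05 to 6.78 (median 6.53) at C1 and 0.06, 5.44, 6.54, 6.99 and 1.29 on C2 replicates 1 to 5. Its change of -2.38 ± 0.92 did not pass (adjusted p = 0.0464). CCNB1, cyclin B1, measured 4.15 to 4.63 (median 4.44) at C1 and -1.42, 3.90, 5.17, 5.66 and -0.35 at C2, a change of -1.83 ± 0.94 (adjusted p = 0.129). On C2 replicates 3 and 4 cyclin B1 was above every C1 array, on replicate 2 below them by less than 1 unit, and on replicates 1 and 5 more than 4 units below. CCNB2, cyclin B2, measured 5.12 to 5.87 (median 5.43) at C1 and -0.54, 4.71, 5.55, 6.29 and 0.30 at C2 (change -2.17 ± 0.91, adjusted p = 0.0638). UBE2C, the ubiquitin-conjugating enzyme that works with the anaphase-promoting complex, measured 4.66 to 5.39 (median 4.82) at C1 and -1.52, 4.05, 5.20, 5.55 and -0.64 at C2 (change -2.36 ± 0.97, adjusted p = 0.0587). These 4 genes had the largest SD over the C2 arrays among the mitosis genes, 3.15 to 3.35. Their probes are shown by the first 30 of 60 bases for 2 of them, beside those of MCM5 and CDC6, to fix which stretch each level was read from.
TOP2A, probe A_73_104838: tttccatttataaacttttcaagaccttcc
CCNB1, probe A_73_115691: gcaaaggtgtaacttgtgaactttggaata
MCM5, probe A_73_102347: tggtgtctgccctggctgcagatccaggaa
CDC6, probe A_73_116405: gcactcccaaggttgtgggggtggtcagga

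Proteins of the centromere and kinetochore, which tie chromosomes to the spindle, were split among the C2 arrays in the same way. CENPE, a kinetochore motor, measured 1.80 to 2.84 (median 2.36) at C1 and -4.25, 1.77, 2.31, 1.58 and -2.97 at C2, the value of replicate 1 being not well above background (change -2.65 ± 0.89, adjusted p = 0.0235). CENPF measured 2.74 to 3.30 (median 2.98) at C1 and -3.44, 2.87, 3.07, 2.07 and -2.40 at C2 (change -2.59 ± 0.90, adjusted p = 0.0272). NDC80, which binds microtubules, measured 3.27 to 3.59 (median 3.35) at C1 and -2.07, 2.18, 2.95, 3.46 and -1.75 at C2 (change -2.43 ± 0.77, adjusted p = 0.0166). In all 3 genes C2 replicates 1 and 5 were the lowest of the 17 arrays. CENPA, the centromeric histone, had a change of -2.22 (adjusted p = 0.0385), and BUB1, a kinase of the spindle checkpoint, one of -2.21 (adjusted p = 0.0529).

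AURKA, the kinase of the spindle poles, measured 4.15 to 4.48 (median 4.26) at C1 and -1.11, 3.08, 3.54, 4.16 and -0.42 at C2. Its change of -2.42 ± 0.70 missed the threshold (adjusted p = 0.0103), and 1 C2 array touched the C1 range. BIRC5 (survivin), a partner of AURKB, measured 3.14 to 3.83 (median 3.52) at C1 and -2.04, 2.51, 3.30, 3.40 and -1.89 at C2 on probe A_73_109270. TPX2, known to activate AURKA on spindle microtubules, was the exception, with -1.06 to -0.23 (median -0.74) at C1 and -0.65, -0.71, -0.90, -0.80 and -0.94 at C2 (change -0.15 ± 0.18, adjusted p = 0.537). No array stood apart for TPX2. Its only probe lay below the array median on every array, and which transcripts that probe matches was not tested. The remaining members had changes of -2.35 (NUSAP1, which bundles spindle microtubules, adjusted p = 0.0201), -2.0 (CCNA2, cyclin A2, adjusted p = 0.0414), -1.91 (KIF23, adjusted p = 0.012), -1.52 (KIF20A, adjusted p = 0.125) and -1.33 (PRC1, adjusted p = 0.0564), the last 3 being proteins of the central spindle that divides the cell. CDC2, the kinase of cyclins A and B, measured 3.03 to 3.30 (median 3.14) at C1 and 0.08, 2.94, 3.93, 4.56 and 0.88 at C2 (change -0.67 ± 0.57, adjusted p = 0.376). Its C2 values fell on both sides of the narrow C1 range.

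**Figure D4:**
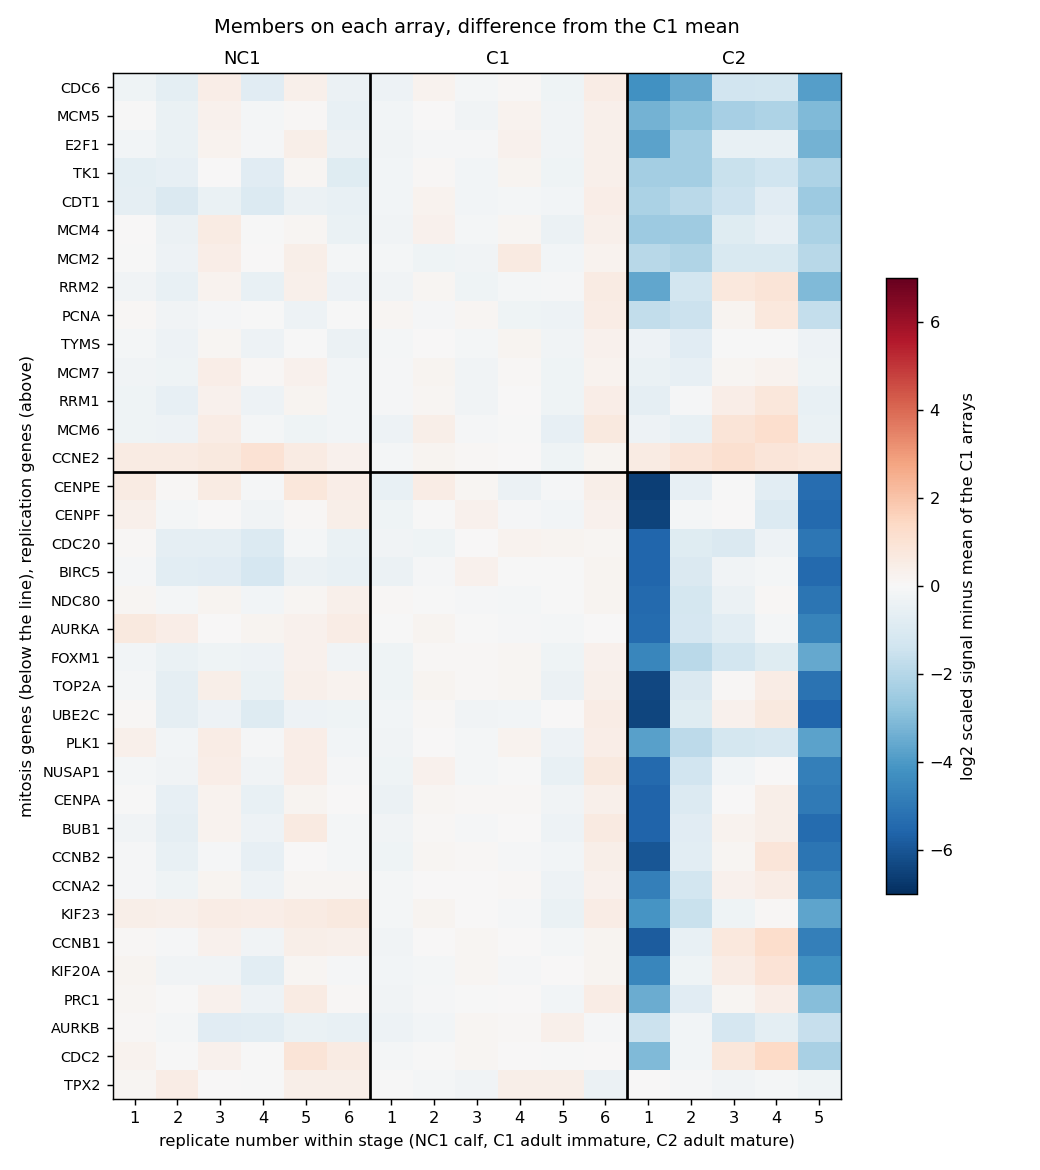
Difference of each member from its mean over the C1 arrays, in log2 units and by colour, for the 14 replication genes (above the line) and 22 mitosis genes (below the line) on each of the 17 arrays. The mitosis genes are deep blue on C2 replicates 1 and 5 and close to white on replicates 3 and 4, and the upper replication genes are blue on all 5.

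The split among the C2 arrays ran through most of the mitosis list. The median difference from the C1 mean over the 22 mitosis genes was -5.46, -0.85, -0.01, 0.09 and -4.79 on C2 replicates 1 to 5. Over the 14 replication genes it was -2.08, -1.68, -0.28, -0.27 and -2.05, and over all valid probes it lay between -0.09 and 0.17. Replicate 2 was thus close to replicates 1 and 5 for replication and closer to 3 and 4 for mitosis. C2 replicates 1 and 5 were the lowest pair for 21 of 22 mitosis genes (all but TPX2), for 8 of 14 replication genes and for 21.1% of all valid probes. Replicates 3 and 4 were the highest pair for 17 mitosis genes and 13 replication genes, against 29.6% of all valid probes. The number of mitosis genes below all C1 arrays was 21, 19, 6, 6 and 21 on replicates 1 to 5, and that of replication genes 12, 11, 7, 7 and 11. Of all valid probes, 28.5%, 35.1%, 34.2%, 28.5% and 27.8% lay below all C1 arrays, so that the 6 of 22 mitosis genes (27.3%) on replicates 3 and 4 were no larger a share than that of all probes. An SD over 1 among the C2 arrays was seen for 20 of 22 mitosis genes, 4 of 14 replication genes and 14.6% of all valid probes. These arrays are replicates of 1 stage without labels that part them, so that no test was made between them.

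**Figure D5:**
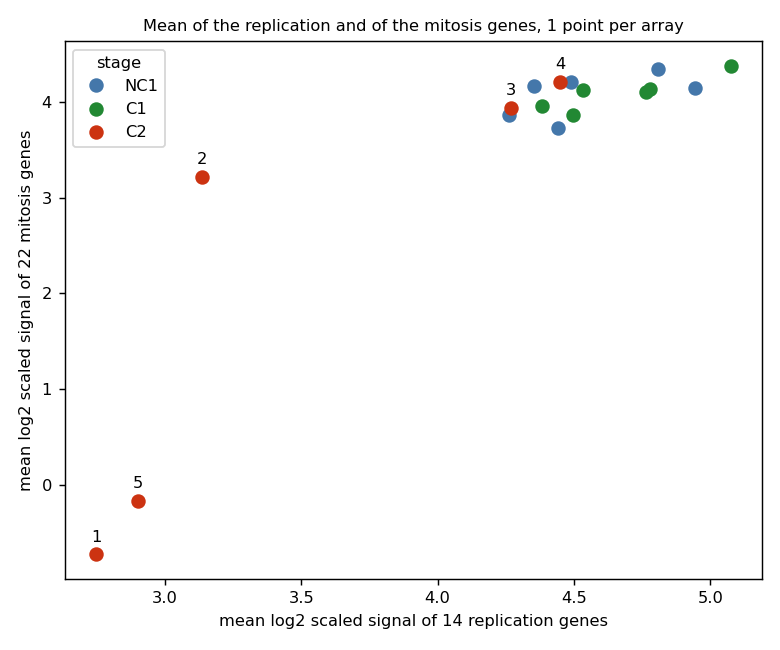
Mean log2 scaled signal of the 14 replication genes (horizontal axis) and of the 22 mitosis genes (vertical axis), 1 point per array, coloured by stage, with replicate numbers above the C2 points. C2 replicates 1 and 5 are low on both axes, replicate 2 is low for replication (3.14) and less so for mitosis (3.22), and replicates 3 and 4 lie among the C1 and NC1 arrays for mitosis.

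Averaged over each list, the mitosis genes had a log2 scaled signal of 3.73 to 4.34 at NC1, 3.86 to 4.38 at C1, and -0.73, 3.22, 3.94, 4.21 and -0.17 on the C2 arrays. The replication genes had 4.26 to 4.94, 4.38 to 5.07, and 2.75, 3.14, 4.27, 4.45 and 2.90. C2 replicates 1, 2 and 5 shared 1 scan day and replicates 3 and 4 the other, with 3 NC1 and 3 C1 arrays on each. Within the scan day of replicates 1, 2 and 5, the median change against C1 was -2.10 for replication and -3.73 for mitosis genes. Within the other day, with C2 replicates 3 and 4, it was -0.31 and -0.10. The members called within that second day were MCM5 (-2.26, adjusted p = 4.56e-05), TK1 (-1.52, adjusted p = 0.00159), CDC6 (-1.40, adjusted p = 0.00475), PLK1 (-1.24, adjusted p = 0.00432) and FOXM1 (-1.15, adjusted p = 0.0038). These 5 of 36 members stand beside 12.7% of all valid probes that were lower at C2 within that day, a share close to theirs. MCM2 (-1.09, adjusted p = 0.016), MCM4 (-0.83, adjusted p = 0.0543), CDT1 (-1.09, adjusted p = 0.0116), E2F1 (-0.56, adjusted p = 0.141), CDC20 (-0.64, adjusted p = 0.109) and AURKB (-0.94, adjusted p = 0.016) were not called within it, nor was CCNE2 (0.90, adjusted p = 0.025). With the scan day as a block in the fit over all arrays, 12 members were called against C1, but CDC20 lost its call and KIF23 gained one. That fit called 2198 of all 13865 valid probes higher and 1809 lower. Replicate 2, scanned with replicates 1 and 5, lay between them and the other C2 arrays for the mean of either list, and the part of the scan day was not tested.

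Markers of other cells differed between the same C2 arrays. The summed scaled signal of leukocyte markers (11 of 12 with a probe) was 35.6, 7.98, 18.3, 18.8 and 45.2 on C2 replicates 1 to 5, against 6.38 to 10.2 at C1 and 8.05 to 18.7 at NC1. Replicates 1 and 5, the lowest for mitosis genes, were the highest for leukocyte markers, while replicate 2 lay within the C1 range. LAPTM5, a lysosomal protein of leukocytes, measured 3.61, -0.81, 1.95, 2.17 and 3.93 on the C2 arrays. CD3E, a chain of the CD3 complex that goes with the T cell receptor, was well above background on 4 of the 5 C2 arrays and on no other array. The sum of the cumulus and granulosa markers (11 genes) was 1150, 2620, 3910, 4010 and 1160 at C2 and 3150 to 4500 at C1. CYP19A1, the aromatase of granulosa cells, was lowest on replicates 1 and 5 as well, with -3.38, -1.15, 2.34, 2.43 and -3.74. FOXL2, a granulosa transcription factor, was low on all 5, with 5.02, 5.37, 5.32, 5.27 and 5.15 against 7.78 to 8.63 at C1. Endothelial markers (7 genes) summed to 9.50, 5.14, 10.6, 12.4 and 8.08 at C2 against 2.72 to 4.12 at C1, with CDH5 not well above background on any array. VWF, a clotting factor of endothelium, measured 2.46 and 1.94 on replicates 1 and 5 but -3.60, -3.13 and -2.94 on replicates 2 to 4. The sum of its list was instead highest on replicates 3 and 4, so that VWF does not stand for the other endothelial markers. Theca and stroma markers (9 genes) summed to 351, 458, 438, 604 and 301 against 198 to 306, but the mean log2 scaled signal of the 8 valid ones was highest on replicates 1 and 5 (4.69 and 4.31, against 3.26 to 3.36 on the others and 2.44 to 3.73 at C1). PDGFRA, a receptor of stromal cells, measured 4.64, 1.45, 0.97, 0.83 and 3.52. Oocyte markers (9 of 11 with a probe) summed to 10.9, 35.6, 15.5, 16.4 and 12.4 at C2, 15.4 to 61.9 at C1 and 61.2 to 137 at NC1, and ZP2, BMP15 and DAZL were not well above background on any C2 array. Red blood cell markers (4 of 5 with a probe) stayed at or under 0.785 on all arrays. What part these cells have in the changes of the members was not tested.

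The calf samples served as a further reference. In the comparison of C2 with NC1, 11 members were down-regulated and none was up-regulated, where 28.1% of all valid probes passed the test and 12.6% were lower. These 11 were the same 7 replication genes with PLK1, FOXM1, AURKA and KIF23. All C2 arrays lay below all NC1 arrays for 6 replication and 4 mitosis genes, against 10.3% of all valid probes. The median change was -1.10 over the replication genes and -2.10 over the mitosis genes, against 0.11 over all valid probes. MCM5 had a change of -2.62 ± 0.22 (adjusted p = 5.89e-08), and AURKA one of -2.78 ± 0.70 (adjusted p = 0.00414). KIF23 measured 5.64 to 5.94 (median 5.75) at NC1 and 1.14, 3.70, 4.98, 5.37 and 1.59 at C2 (change -2.41 ± 0.57, adjusted p = 0.00248). The comparisons with C1 and with NC1 share the C2 arrays and are not independent.

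Between C1 and NC1, limma called no member, and 0.0577% of all valid probes (8 probes) passed. At an unadjusted p under 0.05, 2 of the 36 members and 1365 of all valid probes differed. The median change was 0.14 over the replication genes and 0.00 over the mitosis genes, against 0.05 over all valid probes. CDT1 was higher on all 6 C1 arrays (4.16 to 4.82) than on all 6 NC1 arrays (3.39 to 3.98), a change of 0.65 with an adjusted p of 0.339. On CCNE2 probe A_73_120096 the C1 arrays were all below the NC1 arrays (0.25 to 0.98), with a change of -0.61 and an adjusted p of 0.108. No other member had C1 and NC1 arrays that did not overlap. The share of all valid probes that separate in this way was not counted, so these 2 cases cannot be set against it.

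The 5 remaining members had a probe that was not present on enough arrays, and their values are only described. TTK, a kinase of the spindle checkpoint, was well above background on all NC1 and C1 arrays (medians 1.40 and 1.54), and measured -4.70, 0.29, 0.77, 1.41 and -5.69 on the C2 arrays. BUB1B, another protein of this checkpoint, had medians of -1.38 at NC1 and -1.14 at C1 and measured -5.76, -0.42, -1.11, -1.44 and -5.96 at C2. Both were not well above background on C2 replicates 1 and 5, the arrays that were low for the other mitosis genes, and this kept them out of the tests. ESPL1, the separase that cuts cohesin, was present on 4 NC1, 6 C1 and 5 C2 arrays with medians of -2.15, -1.95 and -2.08. KIF11, a spindle motor, was present on 1, 6 and 2 arrays. MCM3 was present on 4 C1 arrays, 1 C2 array and no NC1 array. Its values overlapped between C1 (-4.51 to -2.96) and NC1 (-5.53 to -4.13), and no fold is given for values this close to background. A dimmer probe of UBE2C was well above background on 5 C1 arrays and on no C2 array, with -4.36 to -2.89 at C1 and -6.34 to -5.34 at C2. Its brighter probe differed, with 5.20 and 5.55 on C2 replicates 3 and 4, within or above the C1 range of 4.66 to 5.39. The dimmer probe of CDC6 measured -2.72 to -1.72 at C1 and -4.60 to -3.08 at C2, and that of PRC1 was lowest on C2 replicates 1 and 5 (-5.82 and -5.91).

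Other genes of the same processes were drawn from lists chosen with earlier results of these data known, so that their counts are not independent support. Of 49 other replication genes, among them the origin recognition complex, GINS, polymerases and clamp loaders, 44 had a valid probe, and 22 fell (50%, against 12.8% of all valid probes) and none rose at C2 against C1, with a median change of -0.96. The deepest falls were those of ORC1, the large subunit of the origin recognition complex (-3.60 ± 0.49, adjusted p = 1.25e-05), UHRF1, which helps copy DNA methylation (-3.04 ± 0.28, adjusted p = 1.49e-07), and GINS2, of the helicase (-2.17 ± 0.34, adjusted p = 5.86e-05). UHRF1 measured -0.53, -0.06, 0.38, 0.26 and -0.10 on the C2 arrays and 2.30 to 3.94 at C1. Of 64 other mitosis genes, 49 had a valid probe, and 17 fell (34.7%) and none rose, with a median change of -1.51. The deepest were CDC25B, the phosphatase that activates CDC2 (-3.22 ± 0.49, adjusted p = 4.15e-05), FBXO5, an inhibitor of the anaphase-promoting complex (-2.90 ± 0.60, adjusted p = 0.000804), and CENPK, of the inner kinetochore (-2.69 ± 0.66, adjusted p = 0.0034). CDC25B measured 1.96, 4.13, 5.01, 5.45 and 2.32 on the C2 arrays and 6.54 to 7.53 at C1, with the same order of C2 arrays as PLK1. C2 replicates 1 and 5 were the lowest pair for 44 of these 49 mitosis genes and for 15 of the 44 replication genes, against 21.1% of all valid probes. All 5 C2 arrays lay below all C1 arrays for 17 of the 44 replication genes and 10 of the 49 mitosis genes, against 11.0% of all valid probes.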

How the data were processed

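RNA of 17 cow samples (6 NC1, 6 C1, 5 C2, grouped by the stage in their labels) was hybridised with Cy3 to Agilent 1-colour arrays, with 6 slides and 2 scan days. No slide held more than 1 array of a stage. The authors deposited linear intensity values per spot, background-corrected by Feature Extraction 10.5.1.1, and a table of log2 values that the authors scaled by array medians in GeneSpring GX. That table holds the 15256 probes that pass the presence filter in any 2 stages, while the methods ask for each stage, which left 13865 probes here. Depth does not apply to arrays, and no spot was saturated.

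From the spots, the log2 intensity of replicate spots was averaged, without non-uniform and population outlier spots, and centred on the median of the 21475 non-control probes of each array. Presence required that 50% or more of the spots were well above background, uniform and not saturated. The 3 stages were fitted together in limma 3.58.1 (statmod 1.5.0, R 4.3.3) with Benjamini-Hochberg adjustment at 0.01, in place of the methods' one-factor ANOVA, which was run as an alternative. The fit was tested on simulated data with normal noise of the same spread at every stage. That trial does not cover the wider spread of most mitosis genes at C2. Single genes were also compared by 2-sided exact permutation tests over arrays. Other steps used scipy 1.17.1, pandas 2.3.3 and numpy 2.4.6 under Python 3.11.15.

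The members, the other replication and mitosis genes and the marker lists were chosen with earlier results of these data known. Members were matched by gene name or, for names that are numbers of loci, clones or ESTs, by the probe description (TYMS, PCNA, AURKA, UBE2C, TOP2A, TPX2, PRC1 and CENPE among them). NDC80 is named KNTC2 on the array. Given with values on single arrays were, in each list, up to 8 members with the largest absolute change at C2 against C1, the 4 with the largest SD at C2, those that changed against the median of their list and those called between C1 and NC1. Values of other members (MCM7, TYMS, PLK1, AURKB, CDC2, TPX2 and KIF23) were added after they were seen. Of the other genes, the 3 deepest falls and the 3 largest rises past the threshold in each list were to be named, and none rose. Alternatives were 75th percentile scaling, quantile normalization, normexp on the mean signal (offset 50), other presence filters, slide, scan day or replicate number as a block, array weights, the deposited log2 table, the mean over all valid probes of a gene and leaving out each array. Added after seeing the data were each scan day alone and the average of the close C2 arrays (replicates 1 with 5, 3 with 4). The replicate numbers do not pair the samples, which came from different animals at each stage. Promoters were not analysed here, and no coordinates are printed, since the build behind the array design is not given in the sources used here. Probe sequences are those of the array files.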

Additional observations from a re-analysis of the deposited data

Results flagged for a closer look

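In 3 of 114 groups of arrays (1 valid probe of a member at 1 stage each, with both probes of CCNE2 and of BIRC5), 1 array stood far from the others by Dixon's test at the 95% level, where chance alone gives about 1 in 20. MCM6 measured 3.32 on NC1 replicate 3, with the nearest NC1 array at 2.64. FOXM1 measured 3.26 on NC1 replicate 5, with the nearest at 2.75. PRC1 measured 6.89 on C1 replicate 6, with the nearest at 6.40. No group of C2 arrays was marked. The test looks for 1 array apart, and does not show a pair such as C2 replicates 1 and 5 that lies low together.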

How the results depend on the processing

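The number of members called against C1 was 12. It lay between 11 and 15 under other scalings, the normexp background, other presence filters and slide or scan day as a block. The deposited log2 table, the mean over probes and the averaged close C2 arrays gave 11 each. The calls against C1 over all 13865 valid probes moved as well. They were 2117 higher and 1775 lower in the main fit, 2114 and 2514 with 75th percentile scaling, and 2212 and 2464 with quantile normalization. Normexp gave 1650 and 1650. The ANOVA over the 3 stages called 10 members, without a direction or a pair of stages. With the replicate number as a block, 11 members were called against C1 and 10 against NC1. Over all 13865 valid probes, that fit called 1740 higher and 1462 lower against C1, and 1702 and 1386 against NC1. The replicate numbers do not pair the samples, since the correlations of same-numbered arrays lay between -0.32 and 0.25. Array weights gave 30 calls against C1, 28 against NC1 and 1 (CCNE2) between C1 and NC1, with weights of 0.87, 0.28, 0.37, 0.32 and 0.93 for C2 replicates 1 to 5. Of all 13865 valid probes, they called 2430 higher and 1609 lower at C2 against NC1. Between C1 and NC1 they called 61 higher and 178 lower, so that the CCNE2 call came with many others. The second scan day alone, with 2 C2 arrays, gave 5 and 2 calls and a median change of -0.31 for the replication genes. Against NC1, 1975 of all 13865 valid probes were higher and 1500 lower within that day. Leaving out single arrays gave 11 to 22 calls against C1, 10 to 17 against NC1 and 0 between C1 and NC1, with medians of -1.80 to -1.11 for replication and -2.87 to -1.37 for mitosis genes. The highest counts were those without C2 replicate 4 (22 and 17) and without C2 replicate 3 (20 against C1). Without C2 replicate 4, 1752 of all 13865 valid probes were higher and 1697 lower against NC1. CCNE2 turned from 0.82 to -0.61 with the mean over its probes. CDC20 lost its call in 23 settings, AURKB within each scan day and with the close C2 arrays averaged. CDT1 lost its call against NC1 with normexp, the replicate block and the second scan day. RRM1 (0.00) turned to -0.12 under 75th percentile scaling, which moved the median of all probes from 0.02 to -0.11. The cause of these differences was not tested. Probes not well above background on C2 replicates 1 and 5 limit what can be said of TTK, BUB1B and CENPE.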
